A study of Caenorhabditis elegans with 5 samples.

Results

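The ribosomal DNA array loci are stretches of the C. elegans genome where genes for ribosomal RNA stand in tandem copies, and 52 of the 4654 LIN-42 ChIP-seq peaks in 3 lists lay in them. The members were chosen by position, as every peak within 17100000 to 17140000 of chromosome V, around ZK218.8 and ZK218.12_ncRNA, and every peak within 15050000 to 15072423 of chromosome I, around F31C3.13_ncRNA, F31C3.14_ncRNA, F31C3.15_ncRNA and F31C3.16_ncRNA. All coordinates are those of ce10. These windows had been selected on the same lists, because runs of peaks lie in them, so the number of peaks, their widths, tags and folds, and the lists that hold them are given as a description with no test. The first window is called the 5S array and holds 34 peaks, and the second is called the 45S array and holds 18.

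In C. elegans the genes of the small and large subunit rRNAs form a tandem array at the right end of chromosome I, where RNA polymerase I transcribes them as a single long precursor. The 5S rRNA genes form another array on chromosome V. RNA polymerase III transcribes them, and most of their repeat units also carry a gene for the SL1 RNA, the short leader that is spliced onto the start of many worm mRNAs. LIN-42 is the worm homolog of the PERIOD proteins of animal circadian clocks, and it is needed for the timing of larval molts and of developmental stages. Reads from repeats of nearly the same sequence cannot always be assigned to one copy.

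Chromatin came from whole larvae of strain HML214, which carries a functional LIN-42 transgene tagged with GFP, grown at 20°C to late L4. An antibody against GFP was used for LIN-42::GFP replicates 1 and 2, and an antibody raised against a LIN-42 peptide was used for 1 endogenous LIN-42 library with no replicate. The strain and the tag are the same in all 5 samples, and the other 2 samples are input DNA. MACS, the peak caller, used an input control for each LIN-42::GFP list, but the control names in the list headers do not match the numbers of the input samples, so which input sample served which list is not settled. Since the endogenous LIN-42 antibody was used on the GFP-tagged strain, its library can hold tagged as well as untagged LIN-42. MACS kept 38236 tags in replicate 1, 43991 in replicate 2 and 122089 in the endogenous LIN-42 library after it left a single aligned read, or tag, per position. No peak of the lists has fewer than 4 tags for LIN-42::GFP or 5 tags for endogenous LIN-42, so the depth sets a floor under which binding could not be seen, and a place with no peak may still hold some.

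In the 5S array LIN-42::GFP replicate 1 had 11 peaks, replicate 2 had 19 and endogenous LIN-42 had 4. The RefSeq annotation of assembly WBcel235 puts 14 5S rRNA genes and 12 SL1 RNA genes at this locus, most of them in alternation. It places ZK218.8 between rrn-4.2 and rrn-4.3 and calls it a pseudogene, whereas the annotation that the study used counts it as a coding gene. ZK218.12_ncRNA is rrn-4.1, a 5S rRNA gene, with the SL1 RNA genes sls-1.10 and sls-1.11 on either side. Of the 11 replicate 1 peaks, 1 was classed in the promoter of ZK218.8, 8 downstream of it, 1 in the transcript of the non-coding RNA gene ZK218.23_ncRNA and 1 in the transcript of ZK218.12_ncRNA. These names come from the study's annotation and were not compared with RefSeq coordinates. The RefSeq order puts ZK218.23 before ZK218.8, unlike the order of these peaks. It also lists further 5S rRNA genes, rrn-4.6 to rrn-4.14, after rrn-4.1. The closest gene thus says only roughly where a peak lies, and not its place among the gene copies.

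**Figure D1:**
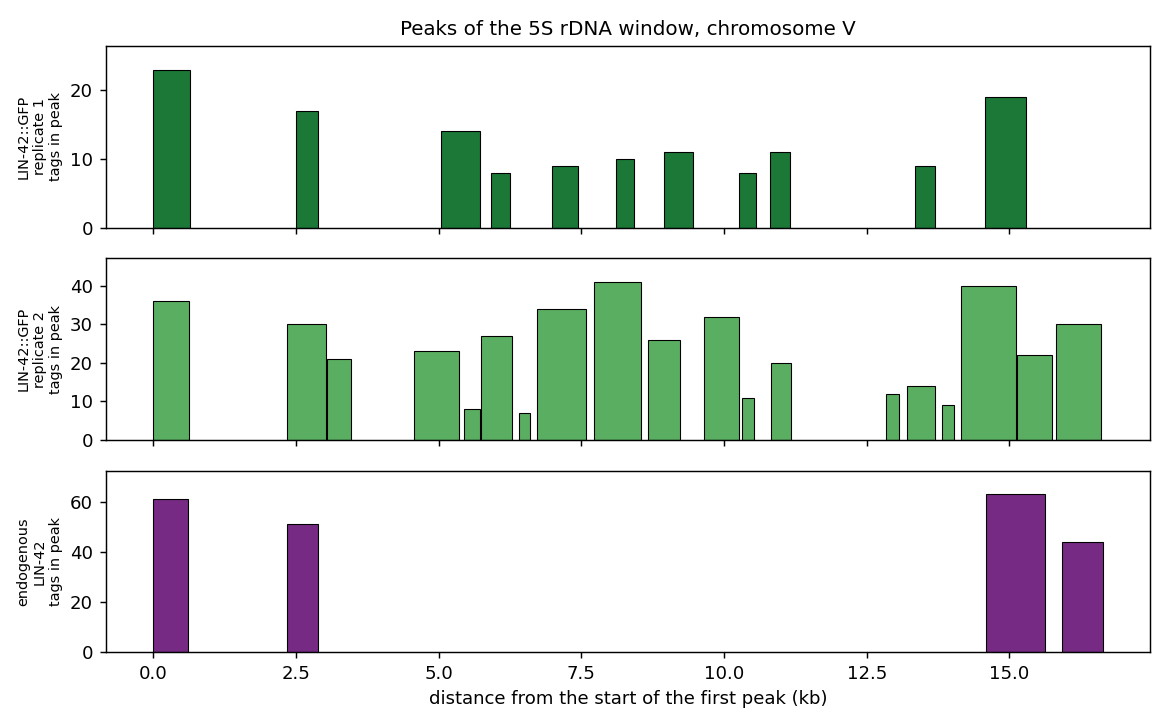
Peaks of the 5S array in the 3 lists. The x axis is the distance in kb from the start of the first peak, each bar spans 1 peak, and its height is the number of tags in it, on a separate axis for each list. The 4 peaks of endogenous LIN-42 lie toward the ends of the run of 19 LIN-42::GFP replicate 2 peaks, with a gap of 11709 bp between them.

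The peak in the promoter of ZK218.8 was the outermost on its side in every list. In replicate 1 it spanned 17115452 to 17116094 and held 23 tags, in replicate 2 it spanned 17115455 to 17116083 and held 36 tags, and in the endogenous LIN-42 list it spanned 17115457 to 17116063 and held 61 tags. The starts of these 3 peaks lay within 5 bp of each other, while their summits lay at 17115847, 17115935 and 17115646 in turn. Its fold enrichment, the ratio of the tags at the summit to the background that MACS estimated, was 7.85, 12.55 and 11.16 in the same order. The peak classed in the transcript of ZK218.12_ncRNA lay near the other end of the peaks. It spanned 17130020 to 17130750 in replicate 1 and held 19 tags at a fold of 23.38. It overlapped a pair of replicate 2 peaks, of 40 and 22 tags, and an endogenous LIN-42 peak of 63 tags. This was the only replicate 1 peak of either array with a MACS p-value of 1e-10 or less.

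Between these ends the lists differed in what they held. Endogenous LIN-42 had no peak from 17118334 to 17130044, a stretch of 11709 bp in which LIN-42::GFP replicate 1 had 8 peaks with 80 tags in all and replicate 2 had 14 peaks with 285 tags. Folds of the 8 replicate 1 peaks ran from 15.76 to 28.13, and those of the 3 peaks outside the stretch from 7.85 to 23.38. In replicate 2 the folds ran from 9.08 to 48.71 inside the stretch and from 12.55 to 25.6 at the 5 peaks outside it. The inner and outer folds overlapped in both replicates. The replicate 2 peak with most tags in this array lay inside the stretch, at 17123173 to 17124004, where it held 41 tags at a fold of 48.71, and the replicate 1 peak at the same place held 10 tags with a fold enrichment of 28.13. The endogenous LIN-42 library was deeper than either LIN-42::GFP library after filtering, but its header names no input control and takes the local background from 10000 bp of the ChIP library itself, so its peaks were called against another background than those of LIN-42::GFP. Antibody and background differ together here and cannot be told apart.

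Summits in the 5S array often lay at 1 distance from each other. Among distances of 500 to 1500 bp between starts, between ends or between summits in all 3 lists, 976 bp was the most frequent with 7 pairs, and the next, 669 bp, had 2 pairs. Of 81 such pairs 19 were within 10 bp of 976 bp. Summits within 10 bp of 976 bp apart occurred 2 times among the 11 peaks of replicate 1, 8 times among the 19 of replicate 2 and 1 time among the 4 of endogenous LIN-42. Outside the arrays there were 5 such pairs among 930 peaks in replicate 1, 4 among 2550 in replicate 2 and 2 among 1122 in endogenous LIN-42. The distance of 976 bp was picked from these same array peaks, and most peaks outside have no neighbor within 2000 bp. A higher count in the array was thus built in, and nothing is read from this comparison. With the midpoints of the peaks in place of their summits, the pairs in the array numbered 0, 1 and 0, so this count rests on the summits. In replicate 2, neighboring summits were 307 bp apart 3 times.

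Counted from the first peak in stretches of 976 bp, 7 replicate 2 summits fell 340 to 350 bp into 7 stretches in a row, the 6th to the 12th. Another 3 replicate 2 summits fell at 647 to 648 bp. In replicate 1, 3 summits fell at 581 bp, 3 at 387 to 392 bp and 1 at 347 bp, inside the range of the replicate 2 summits. The last 2 endogenous LIN-42 summits both fell at 829 bp, and single summits fell near there at 818 bp in replicate 1 and 809 bp in replicate 2. These groups were picked after the positions were seen, and no comparison of the places between the lists is drawn from them.

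**Figure D2:**
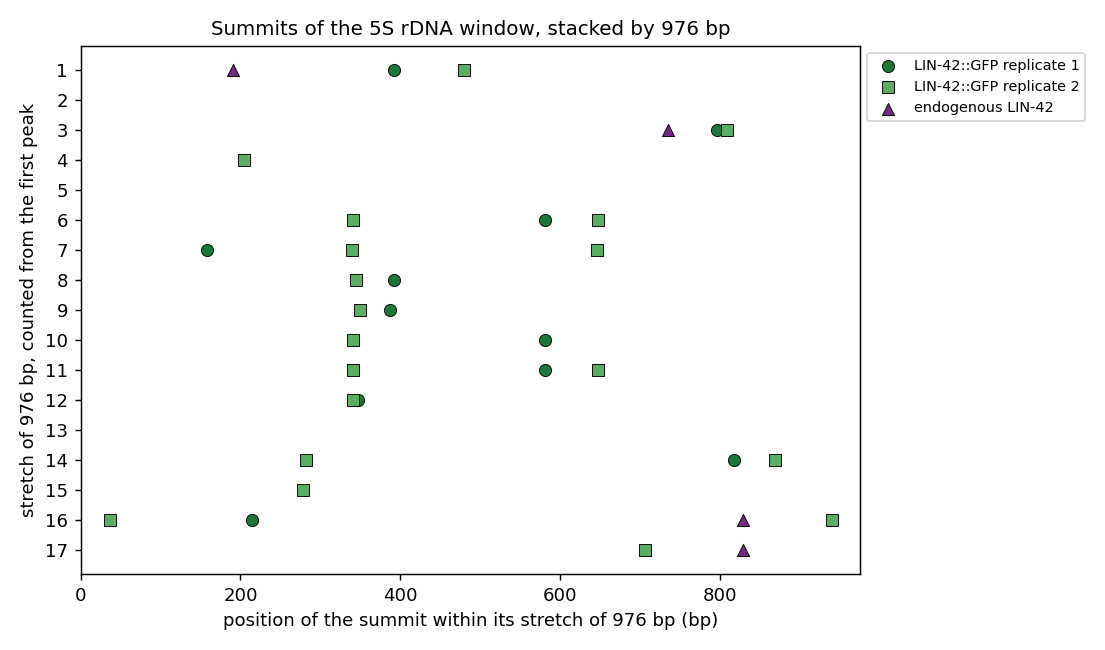
Summits of the 5S array stacked by the most frequent distance of 976 bp. The x axis is the position of a summit in its stretch (bp) and the y axis is the number of the stretch, with a symbol for each list. Summits of LIN-42::GFP replicate 2 form a column at 340 to 350 bp through 7 stretches, and no endogenous LIN-42 summit lies in those stretches.

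In the 45S array replicate 1 had 5 peaks, replicate 2 had 11 and endogenous LIN-42 had 2, all between 15060285 and 15071249 near the end of chromosome I. The RefSeq order of genes there starts with the protein-coding gene F31C3.6 and the rRNA pseudogene rrn-3.56. It then runs F31C3.16, rrn-1.1, F31C3.15, rrn-2.1, rrn-3.1, F31C3.14, rrn-1.2 and F31C3.13. The rrn-1 gene of the small subunit rRNA thus appears in a pair of copies, each between non-coding RNA genes. The genes rrn-2.1 and rrn-3.1, for the 5.8S and 26S rRNAs, lie between the copies. The replicate 1 peaks were classed, in this order, downstream of F31C3.16_ncRNA, downstream of F31C3.15_ncRNA, in the transcript of F31C3.14_ncRNA, downstream of F31C3.13_ncRNA and in the promoter of F31C3.13_ncRNA. None of the 5 was given an rRNA gene as its closest gene. These names come from the study's annotation and were not compared with RefSeq coordinates, so they do not say whether the peaks lie over rRNA genes.

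Many LIN-42::GFP peaks of the 45S array had a partner about 7197 bp away, and no endogenous LIN-42 peak did. Replicate 1 peaks at F31C3.16_ncRNA, 15060341 to 15060742, and at F31C3.14_ncRNA, 15067537 to 15067938, were each 402 bp wide with 16 tags. They started 7196 bp apart, and their fold enrichments were 9.39 and 9.53. Those downstream of F31C3.15_ncRNA, 15061988 to 15062971, and of F31C3.13_ncRNA, 15069185 to 15070168, were each 984 bp wide, started 7197 bp apart and held 27 and 29 tags. In each pair the closest genes hold the same place beside rrn-1.1 and beside rrn-1.2. The latter pair differed more in fold enrichment, which was 7.6 at F31C3.15_ncRNA and 11.59 at F31C3.13_ncRNA.

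Replicate 2 had 4 such pairs, of which 2 overlapped the pairs of replicate 1. Its widest peaks here, 15061730 to 15062818 and 15068927 to 15070015, were each 1089 bp wide, held 43 tags each and lay 7197 bp apart, with folds of 27.64 and 31.43. Peaks of 327 and 330 bp with 12 and 13 tags ended 7197 bp apart, with folds of 18.12 and 34.26. Peaks of 263 and 272 bp, with 7 and 8 tags, started 7187 bp and ended 7196 bp apart. The last pair was unequal, with widths of 264 and 459 bp and 9 and 11 tags, and only its ends lay 7197 bp apart, since its starts were 7002 bp and its summits 7292 bp apart. The tags of the members of a pair thus differed by at most 2 in both replicates, while the folds differed by more in some pairs. Among distances of 5000 to 9000 bp between starts, ends or summits, 7197 bp was the most frequent with 8 pairs and 7196 bp came next with 6.

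**Figure D3:**
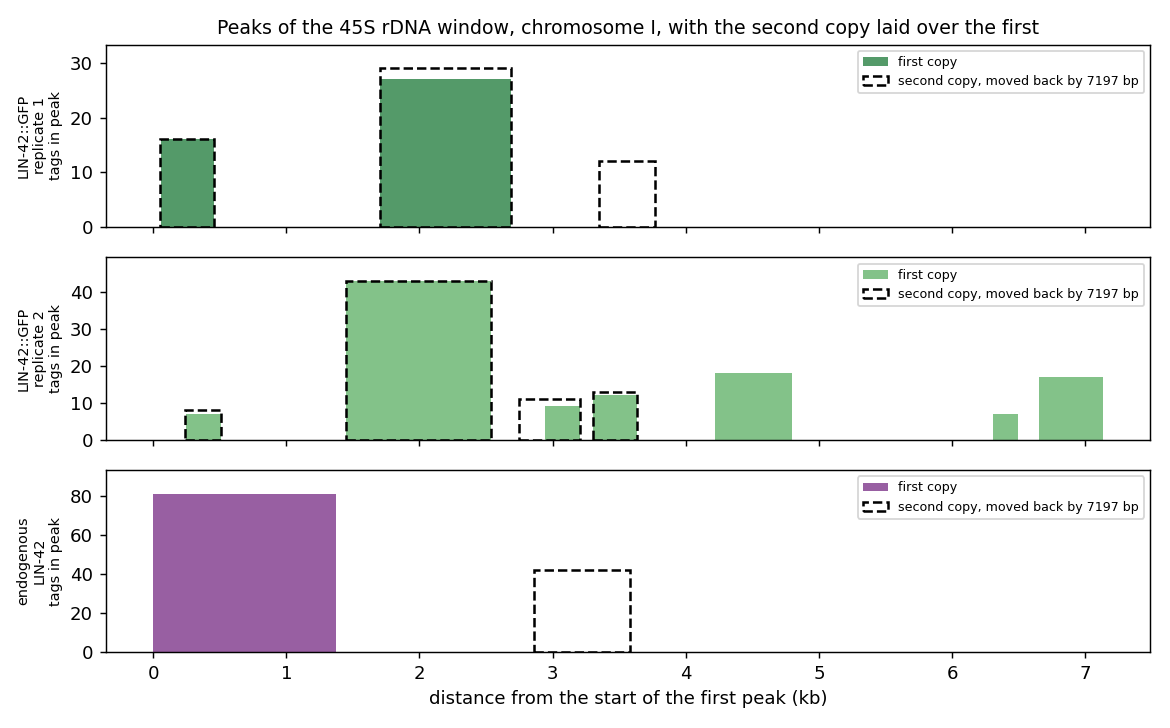
Peaks of the 45S array with the second copy moved back by 7197 bp onto the first. The x axis is the distance in kb from the start of the first peak, bars span the peaks and their height is the tags in each, on a separate axis for each list. In LIN-42::GFP replicate 2 the outlines of the second copy fall on 4 filled bars of the first, and the 2 endogenous LIN-42 peaks do not fall on each other.

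Peaks with no partner numbered 1 of 5 in replicate 1, 3 of 11 in replicate 2 and 2 of 2 in endogenous LIN-42. The replicate 1 peak without a partner lay in the promoter of F31C3.13_ncRNA, at 15070831 to 15071249, with 12 tags. In replicate 2 they held 18, 7 and 17 tags, at 15064506 to 15065083, 15066588 to 15066780 and 15066939 to 15067416, between the paired places. A partner 7197 bp after the peak at 15066588 or that at 15066939 would lie past 15072423, the end of the window and of the chromosome. RefSeq also lists rrn-2.1 and rrn-3.1 once only. Part of the window thus had no second copy to hold a partner, and nothing is read from the lack of one there. The endogenous LIN-42 peaks spanned 15060285 to 15061660, with 81 tags, and 15070343 to 15071060, with 42 tags. They lay at the opposite ends of the array and at different places of the repeat, the first over the region of F31C3.16_ncRNA and the second over that of the F31C3.13_ncRNA promoter. The methods state that only uniquely aligned reads were used, chosen from an alignment that allowed more than 1 place per read. Yet paired peaks could match in width and tags, such as the replicate 2 peaks of 1089 bp with 43 tags each. How reads of near-identical copies were assigned, and whether each was unique to its copy, was not tested.

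All 16 members of replicate 1 shared at least 1 bp with a peak of replicate 2, where 41.8% of all replicate 1 peaks did. Of the 139 replicate 1 peaks outside the arrays that are at least 303 bp wide, the width of the narrowest member, 71.9% did. The 30 replicate 2 members overlapped a replicate 1 peak in 18 cases, against 15.5% over that list. Of the 16 members shared by the replicates, 5 also overlapped an endogenous LIN-42 peak, against 78.2% of all 395 shared peaks and 75% of the 100 shared peaks outside the arrays that are at least 303 bp wide. All 6 endogenous LIN-42 members overlapped a replicate 2 peak, against 33.9% of that list, and 5 overlapped a replicate 1 peak, against 34.4%. The windows were picked for their peaks in these lists and neighboring members share their sequence, so nothing is read from these shares.

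Merged over the lists, the 5S array held 17 separate regions and the 45S array 10. In the 5S array 3 regions were in all lists, 8 in both LIN-42::GFP lists, 1 in replicate 2 and endogenous LIN-42, and 5 in replicate 2 alone. In the 45S array 2 regions were in all lists, 3 in both LIN-42::GFP lists and 5 in replicate 2 alone. By the study's annotation, regions in all 3 lists lay at ZK218.8 and ZK218.12_ncRNA, toward the ends of the peaks in the 5S array. In the 45S array they lay at F31C3.16_ncRNA and F31C3.13_ncRNA, at the ends of the peaks there. These overlaps needed 1 bp only. With summits within 200 bp, 1 of the 3 replicate 1 peaks in all lists was left in the 5S array and 0 of 2 in the 45S array, and with a mutual overlap of 50% all 3 were left in the 5S array and 0 in the 45S array.

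The members were wide peaks with many tags and a low fold enrichment within their own lists. In replicate 1 the median width was 389 bp in the 5S array and 419 bp in the 45S array, against 144 bp at the other 930 peaks. Median tags were 11 and 16 against 5, and median folds were 20.99 and 9.53 against 97.06. The replicate 1 peak downstream of F31C3.15_ncRNA had the lowest fold of its list although it held more tags than 94% of its peaks.

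In replicate 2 the median width was 556 bp in the 5S array and 330 bp in the 45S array, against 120 bp at the other 2550 peaks, median tags were 23 and 12 against 5, and median folds were 24.36 and 18.92 against 82.66. The endogenous LIN-42 members had median tags of 56 in the 5S array and 61.5 in the 45S array against 7 at the other 1122 peaks, and median folds of 7.365 and 6.41 against 35.1. Densities stood closer together, with medians of 28 tags per kb at the members of replicate 1 against 36.7 at its other peaks, 39.4 against 38.8 in replicate 2 and 61 against 42.4 in endogenous LIN-42. Other peaks with a neighbor within 2000 bp had a median width of 323 bp in replicate 1, 194 bp in replicate 2 and 346 bp in endogenous LIN-42. Set against these, the members' median width was 1.27, 2.52 and 2.07 times as large, where all other peaks gave 2.85, 4.08 and 3.98 times. The ratio of tags per kb rose in both replicates, from 0.764 to 0.894 in replicate 1 and from 1.02 to 1.12 in replicate 2. In endogenous LIN-42 it fell from 1.44 to 1.26.

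**Figure D4:**
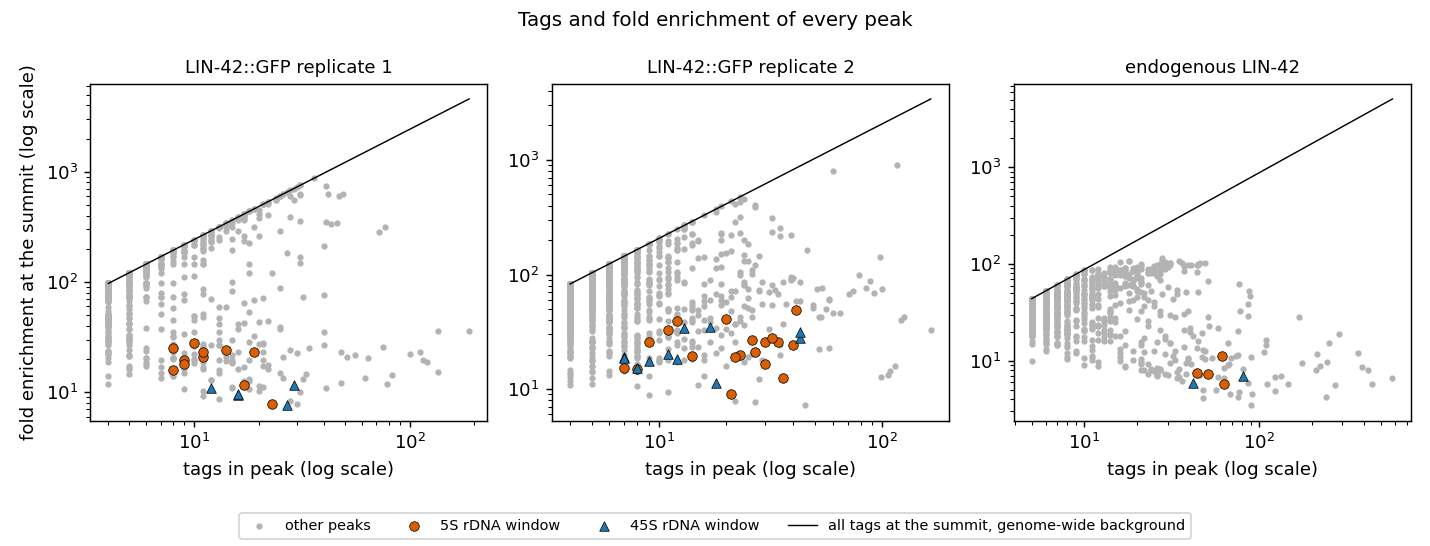
Tags (x axis, log scale) and fold enrichment at the summit (y axis, log scale) of every peak in each list, with the members of the 5S array as circles, those of the 45S array as triangles and the other peaks in grey. The line shows the fold that a peak would have with all its tags at the summit over the genome-wide background. No peak lies above this line, and tags spread over a wide peak put it below the line by that alone. The members have folds of 7.6 to 28.13 in LIN-42::GFP replicate 1, 9.08 to 48.71 in replicate 2 and 5.78 to 11.16 in endogenous LIN-42.

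The background that MACS used at the members can be bounded from the lists. Spread over the genome, the tags of a library give 0.0412 tags in the fragment length of 97 bp in replicate 1, 0.0484 tags in 99 bp in replicate 2 and 0.114 tags in 84 bp in endogenous LIN-42. A summit holds at least the mean depth of its peak, so that depth divided by the fold is the least background that MACS can have used. This bound was 1.98 to 10.7 times the genome-wide level at the replicate 1 members, 2.07 to 10.9 times at the replicate 2 members and 6.12 to 9.59 times at the endogenous LIN-42 members. The bound thus lay above the genome-wide level at 16 of 16, 30 of 30 and 6 of 6 members, and at 28.1%, 38.9% and 42.1% of all peaks of these lists. Among other peaks with a neighbor within 2000 bp it did so at 123 of 174, 223 of 419 and 153 of 178. Outside the arrays the bound reached 16.2, 15.2 and 17.5 times the genome-wide level, so a raised background was not particular to the members. Where the bound lay at or below the genome-wide level, it does not say whether the background was raised. In replicate 1 the bound was higher in the 45S array, with a median of 8.5, than in the 5S array, with 2.62. In replicate 2 the medians were 2.92 and 3.52, so the order of the arrays was not the same in the replicates.

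The members held a small share of the library. Peaks of the 5S array held 139 tags in replicate 1, or 0.364% of its tags (exact 95% binomial interval, for counting error only, 0.306% to 0.429%), 443 in replicate 2, or 1.01% (0.916% to 1.1%), and 219 in endogenous LIN-42, or 0.179% (0.156% to 0.205%). Those of the 45S array held 100 tags, or 0.262% (0.213% to 0.318%), 188 tags, or 0.427% (0.369% to 0.493%), and 123 tags, or 0.101% (0.0837% to 0.12%). These sums follow how much was called. In the 5S array the peaks covered 5046 bp in replicate 1, 10281 bp in replicate 2 and 2899 bp in endogenous LIN-42, at 27.5, 43.1 and 75.5 tags per kb. In the 45S array they covered 3191, 5342 and 2094 bp at 31.3, 35.2 and 58.7 tags per kb. Both the larger share and the higher density of replicate 2 over replicate 1 rest on 1 library each.

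The arrays were not the only runs of neighboring peaks. With gaps of up to 2000 bp, the 19 replicate 2 peaks of the 5S array were the longest run of that list, followed by 12 peaks at Y106G6E.8 and Y106G6E.4 on chromosome I and then by the 11 peaks of the 45S array. In replicate 1 the longest run was that at Y106G6E.8 and Y106G6E.4, with 14 peaks, the next was at Y97E10B.12_ncRNA on chromosome V with 12 peaks, and the 5S array followed with 7 peaks. The 45S array had runs of 3 and 2 peaks in replicate 1. With gaps of up to 1000 bp, the 12 peaks at Y106G6E.8 and Y106G6E.4 were the longest run of replicate 2, ahead of 10 peaks of the 5S array. In endogenous LIN-42 the longest run had 4 peaks, at D2063.4, and the 5S array gave 2 runs of 2 peaks. The median fold of the replicate 1 run at Y106G6E.8 and Y106G6E.4 was 23.4 and that of the 5S run was 22.94.

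The study's annotated list of peaks found in both replicates gave 327 closest genes, of which 316 matched RefSeq by name. Of the 22 rRNA genes of RefSeq, only ZK218.12_ncRNA was among them. Most shared peaks of the arrays were given other closest genes, so this does not say how many of them lie at rRNA genes. None of 78 ribosomal protein genes, none of 21 genes for RNA polymerase I or III subunits or ribosome biogenesis, none of 634 tRNA genes and none of 346 snoRNA genes was the closest gene of a shared peak. Over RefSeq, 258 of 19983 protein-coding genes (1.29%) and 41 of 7762 ncRNA genes (0.528%) were, and nothing about the lists is read from their counts of 0. The SL1 RNA genes are among 129 snRNA genes of RefSeq, of which none was closest either.

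The windows were wider than the runs in them. The nearest peak outside was in replicate 2, at 17098887 to 17098999 of chromosome V and held 4 tags at a fold of 82.66, 1001 bp before the window, while the first member inside held 36 tags with a fold of 12.55. Before the chromosome I window the nearest was a replicate 2 peak of 4 tags, 7069 bp away, and the first member inside held 7 tags.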

How the data were processed

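The authors aligned single-end reads of 76 bases to ce10 with Bowtie2, kept uniquely aligned reads and called peaks in each library with MACS 1.4.2 at a p-value of 1e-05, as the methods and the list headers give it. The deposited tag counts per peak are raw counts after MACS kept 1 tag per position. The deposited score is the MACS p-value as −log10, multiplied by 10, the deposited fold is a ratio of summit tags to background, and the deposited false discovery rate, for LIN-42::GFP only, is a percent from MACS. MACS judged 95.4%, 99% and 94.6% of tags redundant in replicates 1 and 2 and endogenous LIN-42. The methods state that input was used for all lists, but the endogenous LIN-42 header names no control.

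Peaks were read as 1-based. A peak of replicate 1 was called shared if a peak of replicate 2 covered 1 bp or more of it. This rule gave fewer shared peaks than the paper reports for both replicates, and the closest genes of shared peaks come from the paper's own list. Classes and closest genes came from the study's annotated peak list, and gene order from RefSeq WBcel235, with none of its coordinates used. Named are all closest genes in the windows, the rRNA and SL1 RNA genes there and the longest other runs. Pairs at the most frequent distance were taken within 10 bp of it, and this distance was not compared with a repeat length in the sequence. The overlap, run and background steps were checked on simulated data. The members, windows and gene lists were chosen with earlier results of these data known. Input libraries and reads were not analysed here, and no sequence is shown because no ce10 genome was used. Scripts ran in Python 3.11.15 with SciPy 1.17.1, pandas 2.3.3, Matplotlib 3.10.9 and NumPy 2.4.6.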

Additional observations from a re-analysis of the deposited data

How the results depend on the processing

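Widening the windows by 5000 bp and counting from replicate 2 left each result within 1.5 times its value or, for tag shares, within its interval. A false discovery rate of 5% or less changed nothing, but it could not. The highest rate of a LIN-42::GFP member was 2.04%, and the endogenous LIN-42 list gives no rate. A MACS p-value of 1e-10 or less left 1 peak of the 5S array in replicate 1, 14 in replicate 2 and 2 in endogenous LIN-42. In the 45S array 0, 4 and 0 peaks were left in the same order. It left 1 shared peak in the 5S array and 0 in the 45S array, 0 of them with endogenous LIN-42 in either. Tag shares became 0.0497%, 0.873% and 0.0917% in the 5S array and 0%, 0.264% and 0% in the 45S array. With summits within 200 bp, 3 peaks were shared in the 45S array, and 1 in the 5S array and 0 in the 45S array were also in endogenous LIN-42. With a mutual overlap of 50%, 0 in the 45S array were. Leaving out a LIN-42::GFP replicate gave 3 to 5 peaks in the 5S array with endogenous LIN-42 and 2 to 3 in the 45S array, with 5 when replicate 1 was left out.

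Against only other peaks with a neighbor within 2000 bp, the members' median width was 1.27, 2.52 and 2.07 times the others' in replicates 1 and 2 and endogenous LIN-42, where all other peaks gave 2.85, 4.08 and 3.98. Tags were 1.3, 3.17 and 3.03 times, tags per kb 0.894, 1.12 and 1.26 times, and folds 0.55, 0.335 and 0.449 times. Against only peaks at least as wide as the narrowest member, widths were 0.852, 1.77 and 0.735 times, tags 0.765, 2.71 and 1.08 times, folds 0.642, 0.373 and 0.76 times, tags per kb 0.92, 1.62 and 1.09 times, and scores 0.531, 1.43 and 0.625 times. This last set was itself picked by width, so its ratios of widths and tags say nothing about how wide the members are.

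Midpoints of peaks in place of summits gave 0, 1 and 0 pairs within 10 bp of 976 bp apart in the 5S array. Gaps of at most 1000 bp cut the replicate 2 runs to 10 peaks in the 5S array and 6 in the 45S array, and gaps of at most 5000 bp lengthened the replicate 1 runs to 11 and 5. The cause of these changes was not tested. No paired analysis was possible because no result comes from a test.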
